A study of Rattus norvegicus with 14 samples.

Results

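The genes described here are 10 transcriptional targets of the tumour suppressor p53: Cdkn1a, Mdm2, Gadd45a, Bbc3, Bax, Ccng1, Sesn1, Rrm2b, Phlda3 and Tp53inp1. They were found on the array by matching the transcript accession of each probe, without its version, to the rat RefSeq gene table. This gave 11 probes for 9 of the 10 genes, out of 30367 probes on the array, and every one of the 11 probes was among the 21012 bright enough to be tested. Cdkn1a and Mdm2 had 2 probes each, and Sesn1 had no matched probe.

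Total RNA of rat skin biopsies was measured on 14 one-colour expression arrays, 1 array per animal. The exposed group was 6 male CD hairless rats kept under 94 GHz millimetre waves for sessions of 3 h on 3 days of each week over 5.5 months, and the sham group was 8 male CD hairless rats that went through the sham procedure. All came from a study of 30 rats that lived in pairs, the biopsies were taken at the end of the exposure period, and the labels do not give the age of the animals. The comparison asks whether chronic millimetre-wave exposure altered gene expression in skin.

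p53 is a transcription factor that accumulates when DNA is damaged or a cell is otherwise stressed, binds paired copies of a short DNA element and switches on genes that halt the cell cycle, repair DNA or end in apoptosis. One of its targets, Mdm2, encodes the ubiquitin ligase that marks p53 for degradation, so that the response limits itself. In skin this pathway is best known for the response of keratinocytes to ultraviolet light, where raised p21, the product of Cdkn1a, is a standard sign that p53 is active.

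The promoters of these genes were searched for the element through which p53 acts. Of the 10 genes, 6 had an entry in the RefSeq promoter table of build GRCr8, which gives 250 bases before each gene's start and 50 after it. The p53 half-site, an element of 10 bases that reads as its own reverse complement and so covers both strands, was found once each in the windows of Cdkn1a, Gadd45a, Ccng1 and Sesn1, and its letters were not found in those of Mdm2 and Phlda3. Of all 33469 promoters in the table, 2671 (7.98%) held at least 1 half-site. A pair of half-sites with at most 13 bases between them, the full binding site, was found in 20 promoters (0.0598%) and in 0 of the 6. Only exact letters were counted. In the Cdkn1a window the 10 bases directly after the half-site depart from the element at 1 base, so that pair was not counted. No other motif was searched. Known p53 sites of Mdm2 and Gadd45a lie inside introns, which these windows do not cover. The 3 windows below belong to measured genes with a half-site, are written 5′ to 3′ on the strand of the gene, and carry the half-site in capitals.
Cdkn1a, chr20:7150682-7150981 (+), half-site starting 201 bases before the start: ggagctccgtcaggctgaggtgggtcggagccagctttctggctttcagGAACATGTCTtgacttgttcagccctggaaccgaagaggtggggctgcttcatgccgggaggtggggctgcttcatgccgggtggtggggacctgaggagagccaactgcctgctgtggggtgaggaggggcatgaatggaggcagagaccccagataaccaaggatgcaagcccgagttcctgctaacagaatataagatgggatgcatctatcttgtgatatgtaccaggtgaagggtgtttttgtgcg
Gadd45a, chr4:97486750-97487049 (-), half-site starting 48 bases before the start: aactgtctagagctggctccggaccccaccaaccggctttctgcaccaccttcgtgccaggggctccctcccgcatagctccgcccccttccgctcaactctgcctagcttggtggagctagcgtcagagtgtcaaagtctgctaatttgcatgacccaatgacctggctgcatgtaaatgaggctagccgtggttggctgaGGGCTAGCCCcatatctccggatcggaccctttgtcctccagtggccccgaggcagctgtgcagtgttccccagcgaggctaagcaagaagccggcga
Ccng1, chr10:25684827-25685126 (-), half-site starting 232 bases before the start: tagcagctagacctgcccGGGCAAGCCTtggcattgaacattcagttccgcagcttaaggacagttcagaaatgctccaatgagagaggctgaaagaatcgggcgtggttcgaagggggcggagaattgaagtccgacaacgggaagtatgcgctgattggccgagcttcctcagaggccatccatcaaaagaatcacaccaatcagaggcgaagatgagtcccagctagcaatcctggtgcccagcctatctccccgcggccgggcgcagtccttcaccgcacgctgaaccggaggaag
A match of letters is a description of the sequence and not evidence of p53 binding in these animals.

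In exposed skin the p53 target genes stood close to their sham levels. Values below are log2 signals relative to the 75th percentile of signal on the same array, differences are exposed minus sham, and a difference of 0 means equal levels. Of the 11 probes, 0 had an adjusted p under 0.05 with limma, the same as the share over all tested probes (0%), and each had an adjusted p of 0.9998. At an unadjusted p under 0.05 there was 1 of the 11, Rrm2b, beside 3.38% of all tested probes. For 10 of the 11 the 95% interval of the difference lay within 1.5-fold in either direction, as it did for 80.1% of all tested probes, and for 5 of the 11 it lay within 1.2-fold, against 25.4% of all tested probes. In 0 of the 11 were the groups free of overlap, which was the case for 0.0286% of all probes. With 1 probe per gene, the brightest, 6 of the 9 measured genes were higher and 3 lower in exposed skin, where 43% of all 18609 genes were higher. The median difference over the 9 genes was 0.0097, beside -0.019 over all genes. A biopsy is bulk tissue, in which fewer cells of a type and less RNA per cell cannot be told apart.

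**Figure D1:**
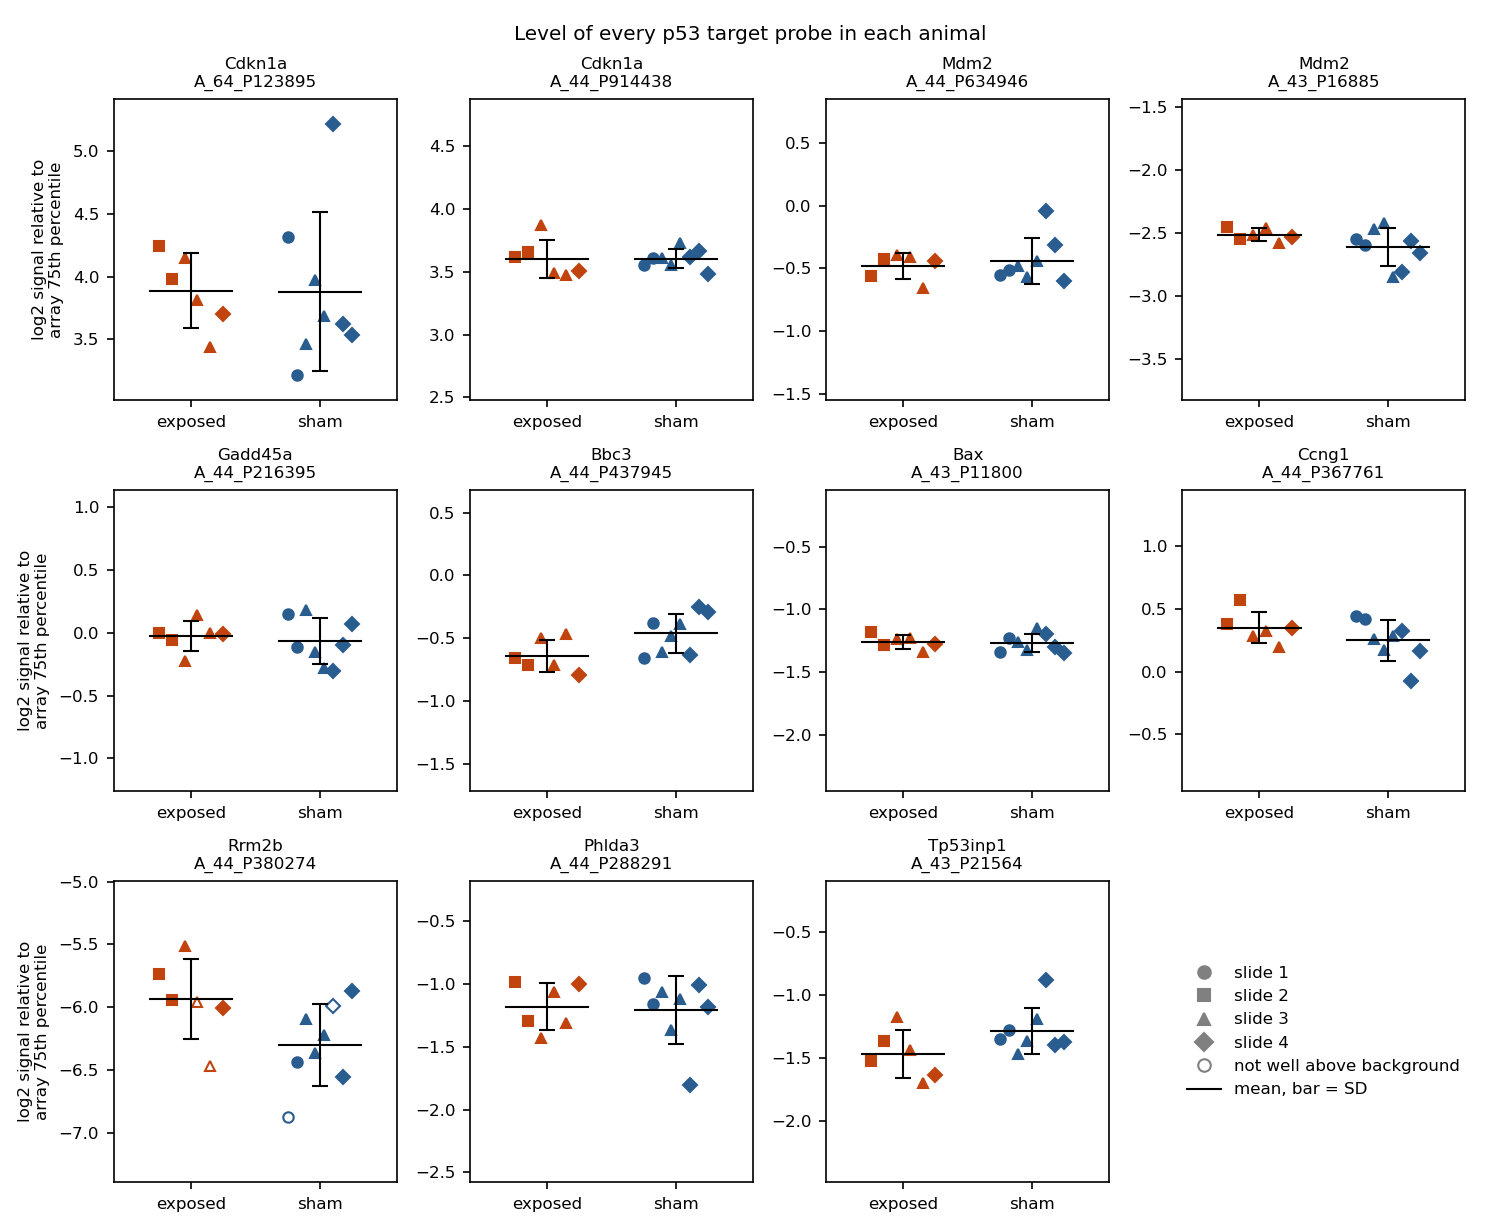
Level of each of the 11 p53 target probes in every animal, as log2 signal relative to the array's 75th percentile (vertical axis, the same span in every panel), for 6 exposed animals on the left and 8 sham animals on the right. Marker shapes give the slide, open markers are arrays where the probe was not well above background, lines are means and bars are SD. The groups overlap in every panel, and the brighter Cdkn1a probe has 1 sham animal at 5.21.

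The 75th percentile of signal was 1075 to 1966 scanner units on exposed arrays and 804.5 to 1967 on sham arrays. Sham animal 6 had the lowest value, and on 50.2% of the tested probes it was the highest or the lowest of the 14 arrays, where the next array, exposed animal 3, was so on 18.5%. It was the highest array for 3 p53 target probes and the lowest for 2. Values that rest on it are therefore also given without it. The arrays lay on 4 slides, of which slide 3 (3 exposed and 3 sham) and slide 4 (1 exposed and 3 sham) held both groups, slide 2 held exposed animals 1 and 2, and slide 1 held sham animals 1 and 2. In limma's F test for slide, fitted with group, 0 of the 11 probes passed the adjusted threshold, as did 0% of all probes, and the smallest unadjusted p among the 11 was 0.146.

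Cell cycle arrest is the best known outcome of p53 activity, and Cdkn1a, which encodes the cyclin-dependent kinase inhibitor p21, is its main effector. On the brighter Cdkn1a probe (A_64_P123895), exposed animals 1 to 6 stood at 4.24, 3.98, 4.15, 3.81, 3.44 and 3.70. Sham animals 1 to 8 stood at 4.32, 3.22, 3.47, 3.97, 3.69, 5.21, 3.62 and 3.53. All exposed values lay inside the sham range, and sham animal 6 was the highest of all by a wide gap. Exposed skin averaged 3.89 ± 0.30 (SD, n = 6), against 3.88 ± 0.63 (SD, n = 8) in sham skin. The difference was 0.0097 (95% interval -0.55 to 0.57, limma, unadjusted p = 0.971). Expressed as a fold, that interval ran from 0.684 to 1.48. The group difference was 0.093 among the arrays of slide 3, -0.42 among those of slide 4, -0.078 once slide entered the model and 0.20 without sham animal 6.

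The second Cdkn1a probe (A_44_P914438) varied far less. Its lowest, median and highest values were 3.48, 3.56 and 3.88 in exposed animals, and 3.48, 3.61 and 3.73 in sham animals. Here sham animal 6, at 3.62, was in the middle of its group, and the highest animal was exposed animal 3. The difference was 0.0013 (95% interval -0.15 to 0.16, limma, unadjusted p = 0.986), a much narrower interval than that of the brighter probe. This probe had 1 spot per array, and which of the 2 probes better follows the Cdkn1a transcript was not tested. Over the 14 animals the SD was 0.50 on the brighter probe, at percentile 89.0 of all tested probes, and 0.11 on the second, at percentile 7.61. The 2 probes of this gene correlated at r = 0.22 across the 14 arrays.

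Gadd45a, which encodes a stress-induced protein that takes part in arrest before mitosis and in DNA repair, gave a similar picture. Its lowest, median and highest levels were -0.22, -0.0066 and 0.14 in exposed animals, and -0.30, -0.10 and 0.18 in sham animals. The exposed range was nested in the sham range, with sham animal 6 lowest and sham animal 3 highest. The difference was 0.043 (95% interval -0.15 to 0.24, limma, unadjusted p = 0.646), and it was 0.0090 without sham animal 6.

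Among the feedback regulators, Mdm2, the ubiquitin ligase of p53, had 2 probes. Their values did not run together across animals (r = -0.44, and -0.025 without sham animal 6). On the brighter one (A_44_P634946) exposed animals lay between -0.66 and -0.40 with a median of -0.43, and sham animals between -0.60 and -0.045 with a median of -0.50. The upper end of the sham range was sham animal 6. The difference was -0.042 (95% interval -0.23 to 0.15, limma, unadjusted p = 0.640), and without sham animal 6 it was 0.014. On the dimmer Mdm2 probe (A_43_P16885) exposed animals were tightly grouped, between -2.58 and -2.45 with a median of -2.52, while sham animals reached lower, between -2.85 and -2.42 with a median of -2.58. Sham animals 5 and 6 were the lowest of all 14 on this probe. That difference was 0.099 (95% interval -0.061 to 0.26, limma, unadjusted p = 0.205).

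Ccng1 encodes cyclin G1, which restrains p53 by bringing a phosphatase to Mdm2. Levels in exposed animals lay between 0.20 and 0.57 with a median of 0.33, and sham animals between -0.074 and 0.44 with a median of 0.27. Exposed animal 2 was the highest and sham animal 7 the lowest, and 5 of the 6 exposed animals were above the sham median. The difference was 0.10 (95% interval -0.083 to 0.29, limma, unadjusted p = 0.260), which shrank to 0.058 when exposed animal 2 was left out and to 0.055 when sham animal 7 was.

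Of the apoptosis genes, Bbc3 had the smaller p. It encodes PUMA, a protein of the BH3-only class that frees Bax and Bak to open the mitochondrial membrane. Exposed animals lay between -0.79 and -0.47 with a median of -0.68, and sham animals between -0.66 and -0.25 with a median of -0.44. All 8 sham animals were above the exposed median and all 6 exposed animals were below the sham median. Of these, exposed animals 1, 3 and 5 lay within the sham range, and exposed animals 2, 4 and 6 lay below every sham animal. Mean levels were -0.64 ± 0.13 (SD, n = 6) under exposure and -0.46 ± 0.16 (SD, n = 8) under sham conditions. The difference of -0.18 had a 95% interval from -0.36 to 0.0045 (limma, unadjusted p = 0.0552, adjusted p = 0.9998). It was -0.066 within slide 3 and -0.40 within slide 4, where 1 exposed animal stood against 3 sham animals. With array weights it was -0.25 (limma, unadjusted p = 0.00673, adjusted p = 0.236). Those weights raised the count of all tested probes with an unadjusted p under 0.05 from 711 to 2699. Without sham animal 6 the Bbc3 difference was -0.20 (limma, unadjusted p = 0.0290, adjusted p = 0.565). With slide as a fixed block it was -0.18 (limma, unadjusted p = 0.157). Limma's trend and robust options gave an unadjusted p of 0.0454, and with single arrays left out p ran from 0.0290 to 0.124.

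Bax, the pore-forming protein that PUMA activates, was the steadiest of the p53 target genes. Its exposed values spanned -1.34 to -1.18 with a median of -1.26, and its sham values -1.35 to -1.15 with a median of -1.28. The exposed animals lay inside the sham range at both ends. Its probe was printed on 10 spots per array, and its SD over the 14 animals was 0.063, at percentile 0.376 of all tested probes. The difference was 0.0070 (95% interval -0.11 to 0.13, limma, unadjusted p = 0.901), which as a fold ran from 0.925 to 1.09.

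Tp53inp1 encodes a stress-induced protein that promotes p53 phosphorylation and cell death. Exposed animals lay between -1.70 and -1.17 with a median of -1.48, and sham animals between -1.47 and -0.88 with a median of -1.36. All 8 sham animals were above the exposed median and 5 of the 6 exposed animals below the sham median, with exposed animal 3 the exception and sham animal 6 the highest. Mean levels were -1.47 ± 0.19 (SD, n = 6) under exposure and -1.29 ± 0.18 (SD, n = 8) under sham conditions. The difference of -0.18 had a 95% interval from -0.40 to 0.035 (limma, unadjusted p = 0.0939), and was -0.13 without sham animal 6, -0.096 within slide 3 and -0.42 within slide 4.

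Phlda3 encodes a small protein that competes with the kinase Akt for membrane lipids and so weakens survival signalling. Its level lay between -1.43 and -0.99 with a median of -1.18, and between -1.81 and -0.95 in sham animals with a median of -1.14. Sham animal 6 was the lowest of all, and the other 7 sham animals covered much the same span as the exposed animals. The difference was 0.027 (95% interval -0.25 to 0.30, limma, unadjusted p = 0.837), and it was -0.059 without sham animal 6, -0.084 within slide 3 and 0.33 within slide 4.

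Rrm2b, which encodes the p53-inducible subunit of ribonucleotide reductase and supplies nucleotides for repair outside S phase had the smallest p of the set. Its 6 exposed animals stood at -5.74, -5.95, -5.51, -5.95, -6.47 and -6.00. Its 8 sham animals stood at -6.88, -6.44, -6.10, -6.36, -6.22, -5.99, -6.55 and -5.87. All exposed animals but exposed animal 5 were above the sham median, and 1 sham animal was above the exposed median. Mean levels were -5.94 ± 0.32 (SD, n = 6) under exposure and -6.30 ± 0.33 (SD, n = 8) under sham conditions. They differed by 0.36 (95% interval 0.0087 to 0.72, limma, unadjusted p = 0.0453, adjusted p = 0.9998).

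This Rrm2b signal was faint. Its probe gave 11.5 to 30.7 scanner units and exceeded background clearly on 10 of the 14 arrays, 4 exposed and 6 sham. The SD between its 2 spots on an array had a median of 0.25, the widest of the 10 p53 target probes with more than 1 spot. The difference was 0.21 once slide entered the model as a fixed block (limma, unadjusted p = 0.308), 0.25 in slide 3 alone and 0.13 in slide 4 alone, so the p under 0.05 was lost there. It was lost too with limma's trend and robust options (unadjusted p = 0.0773), and with single arrays left out p ran from 0.0101 to 0.117. The difference was 0.48 after quantile normalization (limma, unadjusted p = 0.0755) and 0.076 after normexp background correction, which adds 50 units to every spot and so compresses differences of faint ones.

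**Figure D2:**
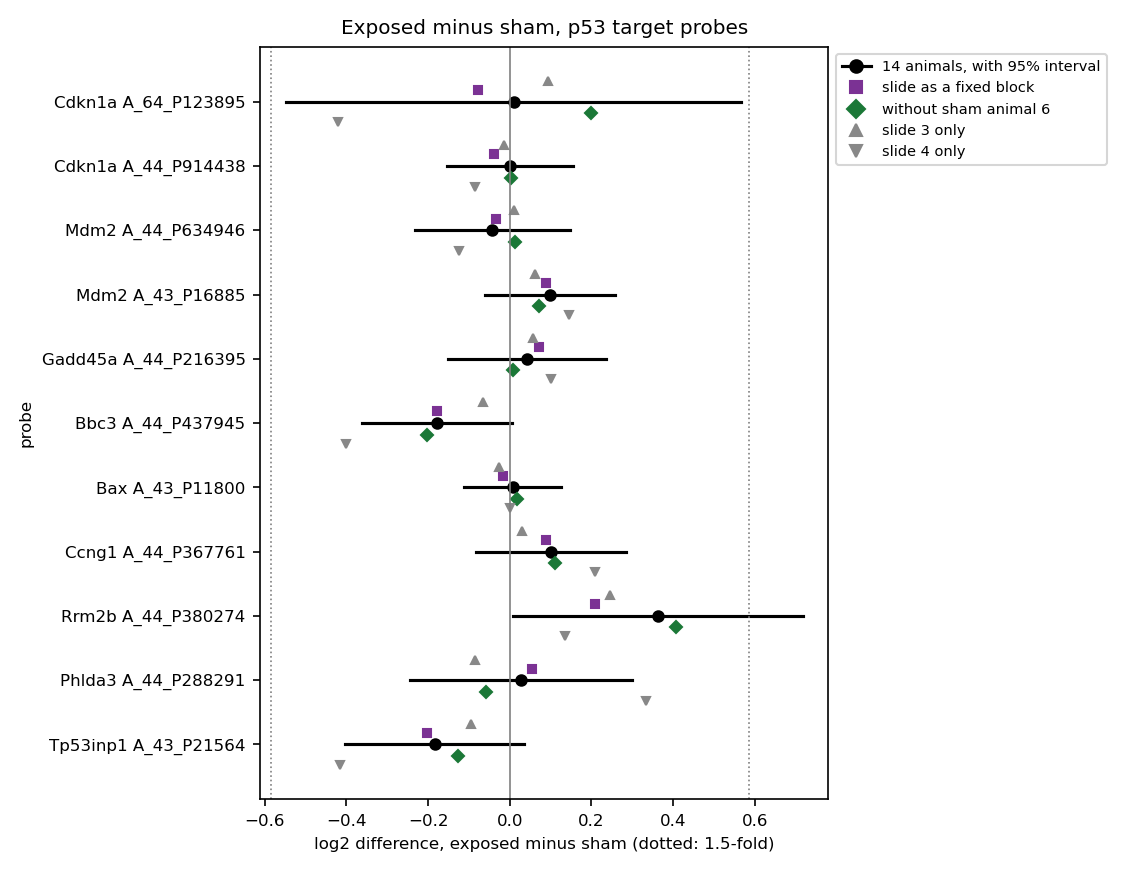
Difference between exposed and sham skin for each p53 target probe (horizontal axis, log2, with dotted lines at 1.5-fold), with the 95% interval over the 14 animals in black and the values with slide in the model, without sham animal 6 and in slide 3 or slide 4 alone as coloured or grey points. The Rrm2b interval, 0.0087 to 0.72, is the one that excludes 0 and passes 1.5-fold, and the widest is that of the brighter Cdkn1a probe, -0.55 to 0.57.

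The large spread of the brighter Cdkn1a probe went with the overall signal of the array. This relation was examined after the data had been seen, for all 11 probes, with adjustment over the 11. Across the 14 arrays the level of that probe correlated with the log2 75th percentile of the array at r = -0.925 (permutation p = 1e-05, the smallest that 100000 permutations can give, adjusted p = 0.00011) and at rho = -0.899 (permutation p = 6e-05, adjusted p = 0.00066). Leaving out sham animal 6 and exposed animal 3, the arrays farthest from the median signal, gave r = -0.855, and the value was -0.899 among the 6 arrays of slide 3. It was -0.813 among exposed and -0.981 among sham arrays.

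The level subtracts this percentile, so a probe whose own signal does not follow its array shows such a relation by construction. The permutation p-values take no account of this shared term, for this or any other probe, and are descriptive only. The unscaled signal of the brighter Cdkn1a probe lay between 17843 and 29804 scanner units and was highest on sham animal 6, the array with the lowest overall signal. Its log2 signal had a slope of -0.35 on the log2 percentile, where the median slope of all tested probes was 0.95 and 4.14% of probes had a slope below 0. Its SD was 0.22 before scaling and 0.50 after it, and 16.5% of probes shared this order. The SD between its 2 spots on an array had a median of 0.013, and it was saturated on 0 arrays. Quantile normalization also brings arrays to a common level, and after it the correlation was -0.834 and sham animal 6 lay 0.77 above the median of the other 13 arrays, against 1.51 above it with percentile scaling. For the second Cdkn1a probe r was -0.419 with percentile scaling (permutation p = 0.135, adjusted p = 0.248) and 0.585 after quantile normalization, so the 2 probes of the gene went opposite ways there.

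**Figure D3:**
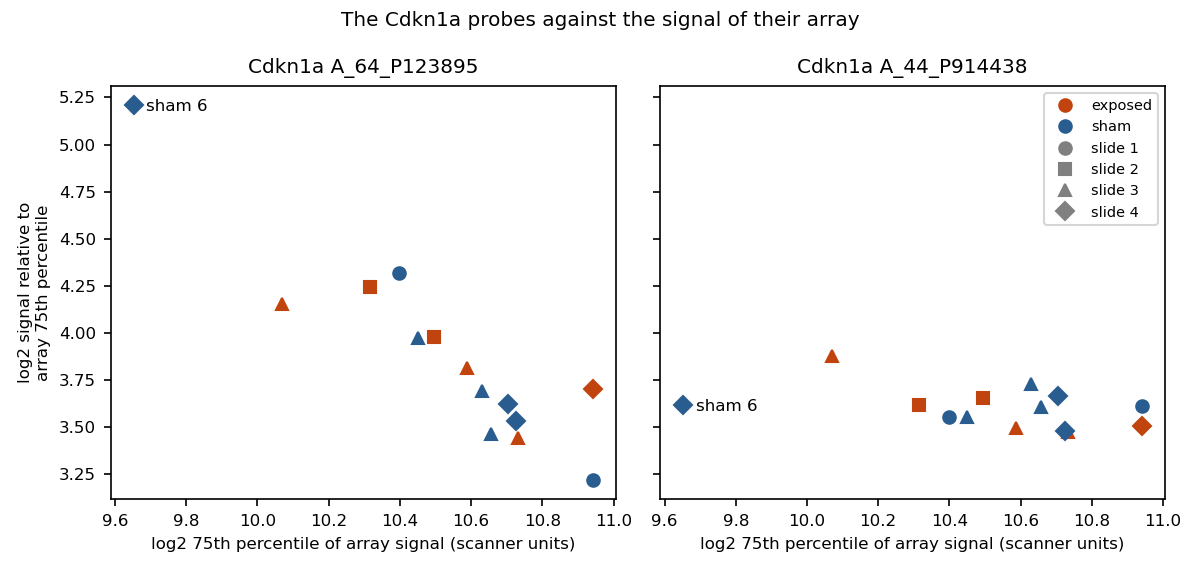
Level of the 2 Cdkn1a probes (vertical axis, log2 relative to the array's 75th percentile) against the log2 75th percentile of signal on the same array (horizontal axis, scanner units), 1 point per animal, coloured by group and shaped by slide. The brighter probe falls with array signal (r = -0.925), exposed and sham animals alike, while the second probe stays between 3.48 and 3.88.

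Phlda3 (r = 0.701, permutation p = 0.010, adjusted p = 0.0367) and Tp53inp1 (r = -0.696, permutation p = 0.00798, adjusted p = 0.0367) also followed array signal. Without sham animal 6 and exposed animal 3 these values were -0.015 and -0.146, so both relations rest on those arrays. Among the 6 arrays of slide 3 alone, which include exposed animal 3, they were 0.667 and -0.672. Leaving out sham animal 6 alone gave 0.334 and -0.391. Neither passed by rank (rho = 0.222 for Phlda3 and rho = -0.477 for Tp53inp1, adjusted permutation p = 0.488 and 0.409). The other 8 probes had adjusted p values of 0.0925 or above.

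Many other probes shared the pattern of the brighter Cdkn1a probe. Of the other 21011 tested probes, 670 (3.19%) correlated with it above 0.9 across the 14 arrays, and 115 did so without sham animal 6. No other p53 target probe had more than 14 such partners, the number for Phlda3, and the second Cdkn1a probe had 0. The 5 genes most like it were Uqcr11, a subunit of respiratory complex III (r = 0.993), Hes7, a transcriptional repressor of the somite clock (r = 0.990), Mag, the myelin-associated glycoprotein (r = 0.980), the Wnt co-receptor Lrp6 (r = 0.977) and the transcription factor Bcl11a (r = 0.974). Each was itself highest in sham animal 6, and each correlated with the log2 array percentile at -0.90 or below. Both traits largely follow from the choice of these genes by their likeness to the brighter Cdkn1a probe. Without sham animal 6 their 5 correlations with that probe ran from 0.938 to 0.983.

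The p53 target probes were also compared with each other from animal to animal. Among the 55 pairs of probes, chosen for examination after the data had been seen, 0 had an adjusted permutation p under 0.05 and 12 had an unadjusted one, with r between -0.684 and 0.714. The share among pairs of other tested probes was not computed, so the 12 cannot be read as particular to p53 targets. Bbc3 and Ccng1 gave r = -0.684 (permutation p = 0.00499, adjusted p = 0.128; rho = -0.666), with -0.441 in slide 3 and -0.426 without sham animals 7 and 8. Mdm2 on its brighter probe and Tp53inp1 gave r = 0.714 (permutation p = 0.00769, adjusted p = 0.128; rho = 0.424), with 0.757 in slide 3 but 0.117 without sham animal 6 and exposed animal 5. Gadd45a and Tp53inp1 gave r = -0.662 (permutation p = 0.00776, adjusted p = 0.128; rho = -0.644), with -0.676 in slide 3 and -0.398 without sham animals 5 and 6. Gadd45a and Phlda3 gave r = 0.649 (permutation p = 0.00934, adjusted p = 0.128; rho = 0.613), with 0.566 in slide 3 and 0.637 without sham animals 5 and 6.

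The wider p53 pathway was measured through 3 further lists. Of 23 p53 regulators, 18 were measured, with 11 higher and 7 lower in exposed skin, where 43% of all genes were higher. Of the 18, 0 were past the adjusted threshold (0% of all genes) and 0 had an unadjusted p under 0.05 (3.39% of all genes). Their median difference was 0.019, and 0.023 without sham animal 6. The p53 relative Tp63, which maintains the basal epidermis, differed by 0.088 (0.040 on a second probe), Mdm4, a partner of Mdm2 in holding p53 down, by 0.087, and Atm, the kinase that reports DNA breaks to p53, by 0.079. Mdc1, a scaffold at damaged DNA, differed by -0.11.

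Of 40 other p53 targets, 30 were measured, with 18 higher and 12 lower, where 43% of all genes were higher. Past the adjusted threshold were 0 (0% of all genes), and 0 had an unadjusted p under 0.05 (3.39% of all genes). The median difference was 0.039, and 0.021 with 17 higher without sham animal 6. Sesn2, a relative of the unmeasured Sesn1 that restrains mTORC1 under stress, differed by 0.053 (95% interval -0.36 to 0.47). The RNA-binding protein gene Zmat3 differed by 0.12 (-0.20 on a second, dim probe), the kinase gene Plk2 by 0.043, the metabolic regulator Tigar by 0.093 and the nuclease gene Aen by 0.080 (0.028 on a second probe). These counts take the brightest probe of a gene, and a second, dim probe of Tigar differed by 0.42 (limma, unadjusted p = 0.0268). On the other side were the stress cytokine Gdf15 at -0.27, the antiproliferative gene Btg2 at -0.15, the mTORC1 inhibitor Ddit4 at -0.049 (0.020 on a second probe) and the desmosomal gene Perp at -0.085. Igfbp3, which binds insulin-like growth factors, had the smallest p of this list: exposed animals lay between 0.58 and 1.83 and sham animals between 1.16 and 2.17, a difference of -0.39 (95% interval -0.78 to 0.0021, limma, unadjusted p = 0.0511). Pmaip1, which encodes NOXA, was too dim to be tested.

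Active p53 lowers many cell cycle genes through p21, so these were taken as the last list. Of 18, 14 were measured, and 12 were higher and 2 lower in exposed skin, where 43% of all genes were higher. Past the adjusted threshold were 0 (0% of all genes), and 0 had an unadjusted p under 0.05 (3.39% of all genes). A list level here is the mean, over the genes of the list, of how far each lay above or below its own average over the 14 animals. The median difference was 0.063, but without sham animal 6, which had the lowest list level (-0.34, where exposed animals ran from -0.15 to 0.21 and the other 7 sham animals from -0.066 to 0.11), it was 0.016 with 8 of 14 higher. The cyclins Ccna2 and Ccnb1 differed by 0.18 (unadjusted p = 0.0654 in limma) and 0.15, while the mitotic kinase Aurka and the transcription factor Foxm1 differed by -0.033 and -0.025. A second Foxm1 probe gave 0.036. No probe was matched to Mki67.

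**Figure D4:**
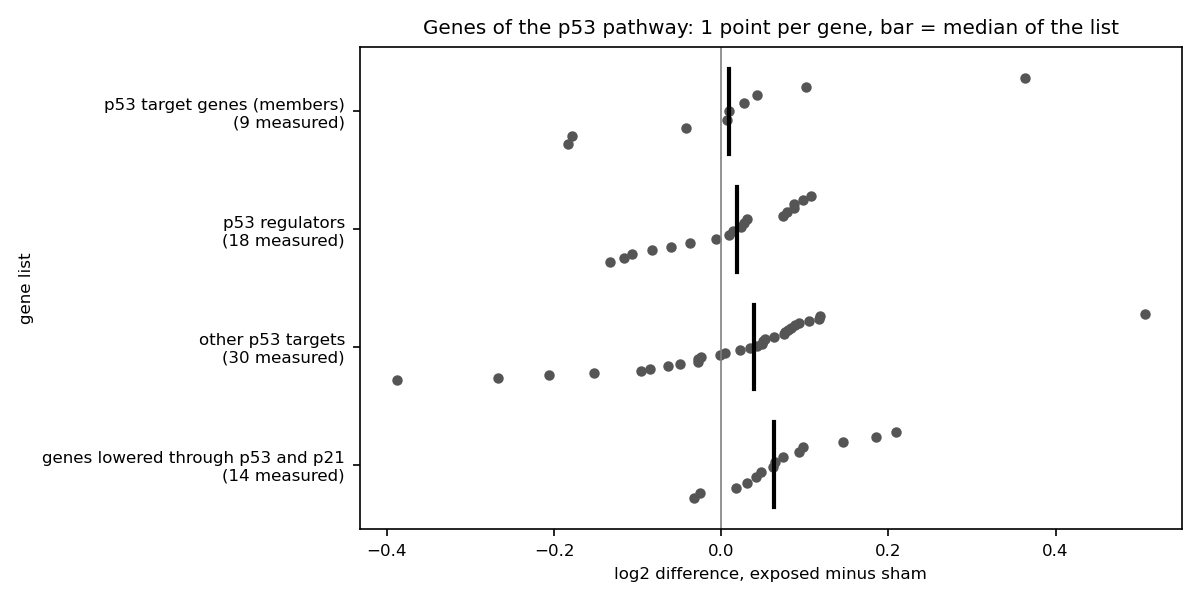
Difference between exposed and sham skin (horizontal axis, log2) for each measured gene of 4 p53 pathway lists, 1 point per gene with the brightest probe, and the median of each list as a bar. The medians are 0.0097 for the p53 target genes, 0.019 for regulators, 0.039 for other targets and 0.063 for genes lowered through p53 and p21, and most genes lie within 0.2 of 0.

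The tissue in the biopsies was checked with marker genes. Basal keratin Krt14 (7.02 ± 0.15 in exposed and 7.08 ± 0.18 in sham skin, SD, n = 6 and 8) and the dermal collagen Col1a1 (7.25 ± 0.38 in exposed and 7.42 ± 0.33 in sham skin) were well above background on every array. The amount of muscle and hair follicle RNA differed widely between animals. Over all 18609 genes, 8000 were higher and 10609 lower in exposed skin, with a median difference of -0.019. Markers of 1 tissue can rise and fall together in an animal, so the counts below are not independent. All 15 measured skeletal muscle markers were higher in exposed skin, with a median of 1.31 and list levels between -1.71 and 4.49 in exposed and between -2.42 and 3.17 in sham animals. All 15 measured hair follicle markers were higher too, with a median of 0.58 and list levels between -1.59 and 1.67 in exposed and between -1.95 and 1.40 in sham animals. Of the 9 measured adipocyte markers 7 were higher with a median of 0.11 and sham animal 6 lowest at -0.92, and without that animal 5 of 9 were higher with a median of 0.037. Other cell types leaned lower in exposed skin: 8 of 8 keratinocyte markers (median -0.072), 7 of 8 fibroblast markers (median -0.11), 8 of 10 immune cell markers (median -0.099) and 5 of 6 endothelial markers (median -0.074). List levels of these 4 overlapped between the groups, none of the 7 marker lists had a gene past the adjusted threshold, and their part in the p53 target values was not tested beyond the relations and models given next. Of 27 relations between the 9 genes and the muscle, hair follicle and adipocyte levels, 0 had an adjusted permutation p under 0.05 and 2 had an unadjusted one, both for Cdkn1a. The larger, with the adipocyte level, was r = -0.638 (permutation p = 0.0166, adjusted p = 0.449; rho = -0.433), with -0.039 in slide 3 and -0.049 without sham animal 6 and exposed animal 1. The other, with the hair follicle level, was r = -0.542 (permutation p = 0.0385, adjusted p = 0.52, rho = -0.481). It was 0.015 in slide 3, -0.506 without sham animal 1 and exposed animal 6, and -0.568 without sham animal 6. With the muscle level in the model the brighter Cdkn1a probe and the other 10 had 0 adjusted p under 0.05. The same held with the hair follicle and the adipocyte level. With the hair follicle level in the model the brighter Cdkn1a difference was 0.16, against 0.0097 without it.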

How the data were processed

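Scanner files as deposited give a spot intensity on a linear scale. Per the file headers they come from Agilent Feature Extraction 10.7.3.1, with background already subtracted. A second file, the authors' deposited table, gives log2 numbers for 15168 probes, each centred on its own median, with column medians between -0.0086 and 0.012. Its normalization was not stated in the sources used here, and quantile-normalized signals correlated with it at 0.99997 or more on each array. It includes 10 of the 11 p53 target probes and served as an alternative.

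Of 62976 spots per array, 4259 control spots and any spot flagged as an outlier were dropped. Levels are log2 processed signals less the 75th percentile of the array, averaged over the spots of a probe. Probes well above background on 6 or more of the 14 arrays were tested in limma 3.58.1 under R 4.3.3 (lmFit, eBayes, 1 term for group, two-sided), with Benjamini-Hochberg adjustment over 21012 probes. Correlations used 100000 two-sided permutations. The fits were tested on simulated data. The number of arrays limits the precision. Rats shared cages, which the labels do not name, so p-values take animals as independent. Slide came from the sample titles.

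The p53 target genes and all lists were chosen with earlier results of these data known. Genes named were all 10 targets, genes fixed by name and, per pathway list, the 2 with the smallest p in each direction. The values of 1 gene of that rule are not reported here. Background correction, scaling, the brightness filter, flagged spots, the probe taken per gene, slide, array weights, the variance model, muscle and hair covariates and single arrays left out were tried as alternatives. The adipocyte covariate, the relations with array signal, the probe pairs and the lists without sham animal 6 were added after seeing the data. The array design was built on rn4 and the gene and promoter tables on GRCr8, so probes have no coordinates here.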

Additional observations from a re-analysis of the deposited data

Results flagged for a closer look

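Of 22 groups of values examined (11 probes in exposed and in sham animals), 1 held an animal far from the others, where chance flags about 1 in 20. Tp53inp1 was at -0.88 in sham animal 6, against -1.19 in the next sham animal, a gap of 0.527 of the group's range where the critical value is 0.526. Its difference between exposed and sham skin was -0.13 without that animal and -0.18 with it. On this probe sham animal 6 lay 0.49 above the median of the other 13 arrays, and 0.55 above it after quantile normalization. Beyond the relation with array signal given above, whether the low overall signal of that array has a part in the value was not tested.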

How the results depend on the processing

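Under the alternatives and with each array left out, 0 p53 target probes and 0 of all probes had an adjusted p under 0.05 in limma, while the unadjusted count over all probes, 711, moved between 323 (within slide 4) and 2699 (array weights) and was 1766 without sham animal 6. The median over the p53 target genes stayed within -0.016 (slide as a block) and 0.063 (without sham animal 1). Alternatives in the brightness filter, the choice of the brightest probe and the variance model cannot change the difference of a probe. Nor can the mean of a gene's probes where the gene has 1 probe. Of 181 differences of single probes under the alternatives, these included, 163 kept their sign and 18 turned it, none of them past the threshold. For the brighter Cdkn1a probe these were -0.00066 with normexp, -0.078 with slide as a block and -0.42 in slide 4. For the second Cdkn1a probe they were -0.0066 with normexp, -0.014 in slide 3, -0.085 in slide 4, -0.038 with slide as a block, -0.039 with array weights, -0.022 with the muscle covariate and -0.0031 with the adipocyte covariate. The brighter Mdm2 probe gave 0.028 as the mean of its gene's probes, 0.011 within slide 3 and 0.0056 with array weights. Bax gave -0.0053 with flagged spots kept, -0.016 with slide as a block and -0.025 within slide 3. Phlda3 gave -0.084 within slide 3 and -0.012 with the adipocyte covariate. With single arrays left out, signs turned for the brighter Cdkn1a probe (-0.085 to 0.20), the second (-0.053 to 0.027), the brighter Mdm2 probe (-0.065 to 0.014), Bax (-0.0083 to 0.024) and Phlda3 (-0.059 to 0.077), and the causes were not tested. Differences ran from 0.28 to 0.47 for Rrm2b, from 0.055 to 0.13 for Ccng1, from 0.0090 to 0.082 for Gadd45a, from -0.21 to -0.15 for Bbc3 and from -0.24 to -0.13 for Tp53inp1. No paired analysis was possible because the labels give no replicate numbers that link exposed and sham animals. The dim Rrm2b signal limits its precision.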
